A study of Mus musculus with 3 samples.

Results

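Matricellular protein genes encode secreted proteins that sit in the extracellular matrix without forming its fibres. The set described here has 9 members, chosen by name from the 31053 genes counted: the tenascins *Tnc* and *Tnxb*, the thrombospondins *Thbs1*, *Thbs4* and *Comp* (thrombospondin 5), *Sparc* and its relative *Sparcl1*, osteopontin (*Spp1*) and periostin (*Postn*). All 9 were matched by symbol. The rule itself uses names and no measured value, but the set was chosen with earlier results of these data known.

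Matricellular proteins bind integrins, other matrix proteins and growth factors, and so tune adhesion, matrix assembly and matrix turnover rather than load bearing. They are typical of tissues that are remodelled or under mechanical load, such as tendon, cartilage, healing wounds and the outflow pathway of the eye. In the iridocorneal angle the trabecular meshwork (TM), a stack of matrix beams and sheets lined by cells, drains aqueous humour into the endothelium-lined Schlemm's canal (SC).

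Single cells of the limbus and iridocorneal angle were measured in 3 droplet libraries, each a pool of 2 to 3 mice of mixed strain aged 6 weeks that had been crossed for 2 generations to ICR mice to obtain albino animals. The 2 control libraries came from *Angpt1* flox/flox mice, and the single *Angpt1*ΔNC library came from *Angpt1* flox/flox;Wnt1Cre+ mice, in which a *Wnt1*-driven Cre removes the floxed *Angpt1* alleles from neural crest-derived cells, so that both groups carry the floxed alleles and only the latter carries Cre. The unit of replication is the library, and with 1 *Angpt1*ΔNC library the genotype cannot be told apart from anything else that differed between pools, their dissection included. The study asked how loss of neural crest *Angpt1*, which encodes a ligand of the endothelial receptor TEK, affects the cells of this region.

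The authors kept 9076, 10160 and 6772 cells of control replicate 1, control replicate 2 and *Angpt1*ΔNC, with 76981606, 80346829 and 66484181 unique molecular identifiers (UMIs, each marking 1 captured transcript). *Angpt1* had 2911 and 3158 UMIs in the controls and 26 in *Angpt1*ΔNC. Both sexes were pooled according to the labels, yet *Xist*, which is transcribed from the inactive X of females, had 3 and 2 UMIs in the controls and 43346 in *Angpt1*ΔNC. Between 13 and 25 cell barcodes were shared by any 2 libraries. The summed level of 12 dissociation stress genes lay below both controls in 19 of 29 labels and above both in 3.

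The deposited tables put each cell under 1 of 35 labels, of which 29 held at least 50 cells in every library and were compared, while clusters 1 and 2, EC2, LEC, SC and TM11 were too small. The 11 TM labels are stromal and not all meshwork: *Myoc*, *Chil1* and *Chad* led TM4, whereas TM10 was led by the fibroblast genes *Clec3b*, *Pi16*, *Cd34* and *Mfap5*, TM2 by *Cldn10* of the corneal endothelium, TM3 by *Tnmd* of tendon and TM1 by *Kera* of keratocytes. *Tnmd* was also among the leading genes of TM4, and *Myoc*, *Chil1*, *Chad* and *Nell2* of the meshwork were all detected in TM3. TM6 was led by *Fos* and *Jun*, and none of the marker genes fixed for the tissue was among the leading genes of TM8, TM9 and clusters 17, 18 and 23. Cluster 13 was led by *Spink8*, *Thbs4* and *Sfrp2*, clusters 8 and 9 by the pigment cell genes *Tyrp1*, *Pmel*, *Mlana* and *Dct*, cluster 20 by the pericyte genes *Rgs5*, *Kcnj8* and *Abcc9*, and clusters 19 and 21 by smooth muscle *Myh11*. Clusters 4 and 5 are limbal and corneal epithelium-like (*Krt14* and *Krt12*), cluster 22 is lymphocyte-like (*Trbc2*), cluster 24 macrophage-like (*C1qa*), and EC3 and EC4 carry *Plvap* and *Cdh5* of blood vessel endothelium. The labels were made from these same cells, so differences between labels are given as a description with no test.

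The genes lie on 8 chromosomes of mouse build GRCm38: *Tnc* at chr4:63959785-64047015 and *Sparc* at chr11:55394500-55423183 on the minus strand, with *Thbs4* at chr13:92751590-92794818 and *Sparcl1* at chr5:104079111-104113733 also on that strand. On the plus strand are *Tnxb* (chr17:34670535-34719815), *Thbs1* (chr2:118111876-118127133), *Comp* (chr8:70373558-70382066), *Spp1* (chr5:104435118-104441050) and *Postn* (chr3:54361109-54391037). *Sparcl1* and *Thbs1* each overlap a counted gene on the opposite strand (Gm26703 and Gm29233).

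RefSeq promoter sequences on GRCm38.p6 matched 6 of the 9 members (*Comp*, *Thbs1* and *Sparcl1* had no entry), and 3 are printed because these genes changed in the most labels (*Spp1*), fell in a label led by meshwork genes (*Thbs4*) or moved in opposite directions in different labels (*Tnc*). Each line holds the 250 bases before a transcript start, 5′ to 3′ on the gene's strand with matches to any of 4 motifs, searched on either strand, in capitals. The TATA box was searched as TATAAA and was found in 12.4% of all 32851 such windows. The GC box was searched as GGGCGG and was found in 32.7% of them. The AP-1 element was searched as TGACTCA, with matches in 4.46%, and the E-box as CACGTG, with matches in 6.02%. No match overlapped another in the windows shown. The windows are chr5:104434861-104435110 on the plus strand for *Spp1*, chr13:92794819-92795068 on the minus strand for *Thbs4* and chr4:64047016-64047265 on the minus strand for *Tnc*.
Spp1: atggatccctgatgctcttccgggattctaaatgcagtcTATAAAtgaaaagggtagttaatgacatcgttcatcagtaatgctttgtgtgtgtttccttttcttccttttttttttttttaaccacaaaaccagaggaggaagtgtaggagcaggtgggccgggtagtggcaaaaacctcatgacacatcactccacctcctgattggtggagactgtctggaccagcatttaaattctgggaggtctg
Thbs4: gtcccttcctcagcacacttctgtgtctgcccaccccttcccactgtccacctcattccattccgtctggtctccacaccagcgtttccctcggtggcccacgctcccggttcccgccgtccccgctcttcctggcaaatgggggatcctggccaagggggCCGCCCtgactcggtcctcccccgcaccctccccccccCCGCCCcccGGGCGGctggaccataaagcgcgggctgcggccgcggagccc
Tnc: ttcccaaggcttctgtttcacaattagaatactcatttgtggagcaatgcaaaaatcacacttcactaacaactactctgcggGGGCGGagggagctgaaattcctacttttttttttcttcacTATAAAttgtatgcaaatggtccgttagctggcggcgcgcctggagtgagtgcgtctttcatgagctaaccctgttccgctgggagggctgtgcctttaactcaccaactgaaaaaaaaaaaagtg
The *Spp1* window held 1 TATA box match, 211 bases before the start, the *Thbs4* window 3 GC box matches, 89, 51 and 42 bases before it, and the *Tnc* window a GC box match at 167 and a TATA box match at 126 bases. *Spp1* and *Tnc* each have another start in the table, not printed: the other *Spp1* window held no match, and that of *Tnc* overlaps the one shown and held the same matches at 246 and 205 bases. A match describes the letters and no binding was measured.

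**Figure D1:**
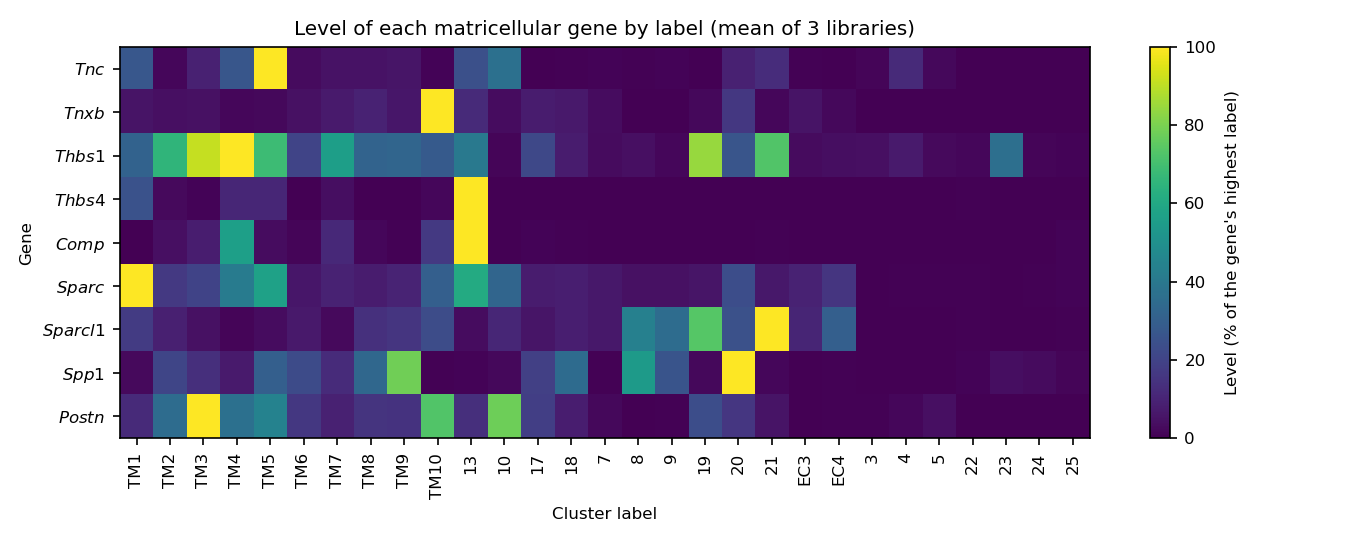
Level of each gene (rows) in the 29 labels with at least 50 cells in every library (columns), as the mean of the 3 libraries' levels in percent of that gene's highest label. *Tnc*, *Tnxb* and *Thbs4* are bright in 1 label each, while *Thbs1* and *Sparc* are spread over many stromal and mural labels.

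A level is the average, over the cells of a label, of the share of a cell's UMIs that belong to the gene, scaled to 10,000 UMIs, and is given for control replicate 1, control replicate 2 and *Angpt1*ΔNC in that order. Since 1 UMI marks a transcript end, they are not divided by gene length and are compared within a gene only. For each member the labels were ranked by the mean of the 3 libraries, and the library ranges of neighbours in that order were apart in 24 of 252 neighbouring pairs: 8 of 28 for *Sparc*, 3 each for *Tnxb*, *Thbs4* and *Postn*, 2 each for *Thbs1* and *Sparcl1*, and 1 each for *Tnc*, *Comp* and *Spp1*. In most places the order of neighbouring labels is therefore within the spread of the libraries.

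*Tnc*, a large hexameric glycoprotein of developing and remodelled matrix, was highest in TM5, a label also led by *Fgf18*, *Cilp2* and *Fn1*, at 4.84, 4.09 and 2.75. Cluster 10 followed at 2.18, 1.32 and 0.813, and TM1 at 0.479, 1.12 and 1.57. TM5 stood apart from cluster 10 in every library, while cluster 10 and TM1 overlapped. TM1 to TM11 held 51.1%, 65.5% and 63.2% of all *Tnc* UMIs, and the epithelial clusters 2 to 5 held another 28.5%, 21.4% and 23.4%.

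*Tnxb*, a tenascin that organises collagen and is deficient in a form of Ehlers-Danlos syndrome, was concentrated in the *Pi16*-positive TM10. There it was at 3.27, 4.28 and 4.96, against 0.592, 0.751 and 0.667 in the pericyte-like cluster 20, the next in order, and 0.706, 0.421 and 0.367 in cluster 13. A *Tnxb* UMI was found in 74.7% (exact 95% interval 68.0 to 80.7), 80.8% (74.0 to 86.5) and 86.2% (80.4 to 90.8) of TM10 cells, compared with 0.522%, 0.198% and 1.11% of the deeper cells (median 21528, 18747 and 20189 UMIs) of the corneal epithelium-like cluster 5.

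*Thbs1*, which activates latent TGF-β and binds CD36 and CD47, was broad, with at least 1 UMI per 10,000 in every library in 18 labels. It was highest in TM4 (18.3, 21.1 and 27.5), TM3 (18.2, 21.6 and 21.3) and the smooth muscle-like cluster 19 (16.7, 17.9 and 21.9). The 3 labels overlapped.

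*Thbs4*, a thrombospondin of tendon and muscle attachments, marked cluster 13 at 22.3, 22.1 and 20.2. TM1 came next at 5.38, 5.51 and 5.42, with tight agreement of the libraries in both labels, and TM5 stood at 2.65, 1.70 and 2.63. Cluster 13 alone held 40.7%, 42.1% and 32.7% of all *Thbs4* UMIs.

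*Comp*, the thrombospondin of cartilage and tendon, shared cluster 13 with *Thbs4* in the controls but had TM4 as a further centre. It was at 7.82, 8.09 and 8.26 in cluster 13, at 2.39, 3.36 and 7.88 in TM4, and at 0.610, 1.59 and 1.77 in TM10. Cluster 13 and TM4 thus lay apart in the controls and overlapped once *Angpt1*ΔNC was included. Within cluster 13 the share of cells with UMIs of both genes was 61.8%, 61.2% and 54.7%, near the 60.1%, 60.1% and 52.6% that their separate shares give if the genes are detected independently. *Thbs4* and *Comp* are among the genes that lead cluster 13, *Comp* also leads TM4, *Tnc* leads TM5 and *Postn* leads TM3, so these peaks are partly what sets the labels.

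*Sparc*, a collagen-binding regulator of matrix assembly, was found in nearly all stromal cells and exceeded 1 UMI per 10,000 in every library in 23 labels. Its level in TM1 was 199, 194 and 194, above cluster 13 (136, 116 and 107) and TM5 (118, 124 and 93.5). Every cell of TM1 held *Sparc* UMIs in every library. Within TM1 the median cell was at 186, 189 and 176, and the 10% of cells with the most held 19.2%, 16.1% and 18.9% of the level, so *Sparc* was even across these cells.

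*Sparcl1* (hevin), a relative of *Sparc* that is typical of vessel walls, was led by mural and pigment cell labels rather than by stroma. It was at 22.1, 25.6 and 11.9 in cluster 21, at 18.04, 15.5 and 10.2 in cluster 19 and at 9.46, 10.1 and 6.31 in cluster 8. In all 3 labels the *Angpt1*ΔNC library was the lowest. Clusters 8 and 9 held 45.5%, 44.0% and 46.5% of *Sparcl1* UMIs, while TM1 to TM11 held 15.2%, 15.5% and 19.9%.

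*Spp1*, an acidic phosphoprotein that binds integrins and CD44, was highest in cluster 20 at 75.3, 85.9 and 126, followed by TM9 at 63.3, 61.3 and 100.3 and cluster 8 at 39.8, 36.9 and 80.1. It was very uneven in cluster 20, where the median cell was at 8.89, 10.2 and 1.94 and the 10% of cells with the most held 57.5%, 54.1% and 53.9% of the level. In cluster 8 the same share was 27.9%, 31.0% and 18.4%.

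*Postn*, a fasciclin-domain protein that promotes collagen cross-linking, was highest in the *Tnmd*-positive TM3 (8.42, 8.04 and 6.44), cluster 10 (5.41, 6.26 and 6.19) and TM10 (3.07, 1.95 and 11.6). TM3 and cluster 10 were apart by a narrow margin. TM10 was the label where the libraries differed most: *Postn* was detected in 43.8% (36.7 to 51.1) and 34.1% (27.0 to 41.9) of its control cells and in 83.5% (77.4 to 88.5) of its *Angpt1*ΔNC cells, and after thinning every cell to 1000 UMIs in 18.6%, 15.6% and 56.9%.

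The genes whose pattern over the 29 labels was most like that of a member were found by the Pearson correlation of log2(mean level + 0.1), among genes reaching 1 UMI per 10,000 in some label. Correlations over labels are descriptions, as labels share libraries and depth. *Sparc* was closest to the collagen chaperone *Serpinh1* (r = 0.95), *Calu* (0.93) and *Sec31a* (0.91), and *Thbs4* to *Cilp2* (0.92), *Angptl7* (0.88) and *Fmod* (0.88). *Postn* was closest to *Fgf2* (0.91), *Col3a1* (0.90) and *Bgn* (0.87), *Comp* to *Sfrp2* (0.89), *Wisp2* (0.88) and *Chad* (0.87), and *Thbs1* to *Cyth3* (0.89), *Lox* (0.87) and *Prrx1* (0.86). *Tnxb* was closest to *Bmp1* (0.86), *Clec3b* (0.84) and *Fbn1* (0.84), and *Sparcl1* to *Camk2n1* (0.84), *Tns1* (0.84) and *Fermt2* (0.83). *Tnc* (*Matn4* 0.76, *Aldh1a1* 0.75, *Golt1b* 0.72) and *Spp1* (*Map2k1* 0.75, *Naalad2* 0.75, *Pi4k2a* 0.74) had no partner as close. Among the members themselves *Thbs4* and *Comp* were the most alike (r = 0.76), ahead of *Sparc* and *Postn* (0.71), while *Comp* and *Sparcl1* were at -0.09.

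For the genotype, UMIs were summed per label and library and the 2 controls were compared with *Angpt1*ΔNC by edgeR's quasi-likelihood test, with p-values adjusted (Benjamini-Hochberg) over all gene-label pairs. With 2 controls and 1 *Angpt1*ΔNC library only 1 residual degree of freedom was left, that between the controls. The test shares its estimate of spread over genes and takes the lone *Angpt1*ΔNC library to vary like the controls. The p-values therefore rest on that shared estimate and measure no spread between *Angpt1*ΔNC libraries. Of 261 member-label pairs, 183 passed the filter of a mean of 10 UMIs per library, and 52 of these (28.4%) passed an adjusted p of 0.05, against a background of 5.31% of 226126 gene-label pairs. Among pairs with a mean of at least 100 UMIs it was 35 of 120 for the members (29.2%), against a background of 9.47% of all such pairs. The changes went both ways, with 29 pairs higher in *Angpt1*ΔNC (background 2.67%) and 23 lower (background 2.64%), and the median log2 change of the 183 pairs was 0.06, against -0.01 over all gene-label pairs.

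Members differed in which way they went. *Spp1* was higher in all 13 labels in which it passed, and *Comp* in all 6. *Sparcl1* fell in 9 labels and rose in 1, and *Thbs4* fell in all 3 in which it passed. *Thbs1* (2 higher, 4 lower), *Sparc* (3 and 3), *Tnc* (2 and 2), *Postn* (2 and 1) and *Tnxb* (0 and 1) had no common direction. Of the 52 pairs, 14 were also called by every other fit that tested them (10 higher and 4 lower), and DESeq2 called 23. Among these fits, that on labels with at least 100 cells is the main fit adjusted over fewer pairs. In 9 of the 52 pairs a single cell held more than 50% of the *Angpt1*ΔNC UMIs, 5 of them *Spp1* pairs. The 14 include *Spp1* in cluster 7 and EC4, where 1 cell held 95.8% and 78.8% of these UMIs. Fits on sums cannot see this, so a call in every fit does not guard against single cells.

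**Figure D2:**
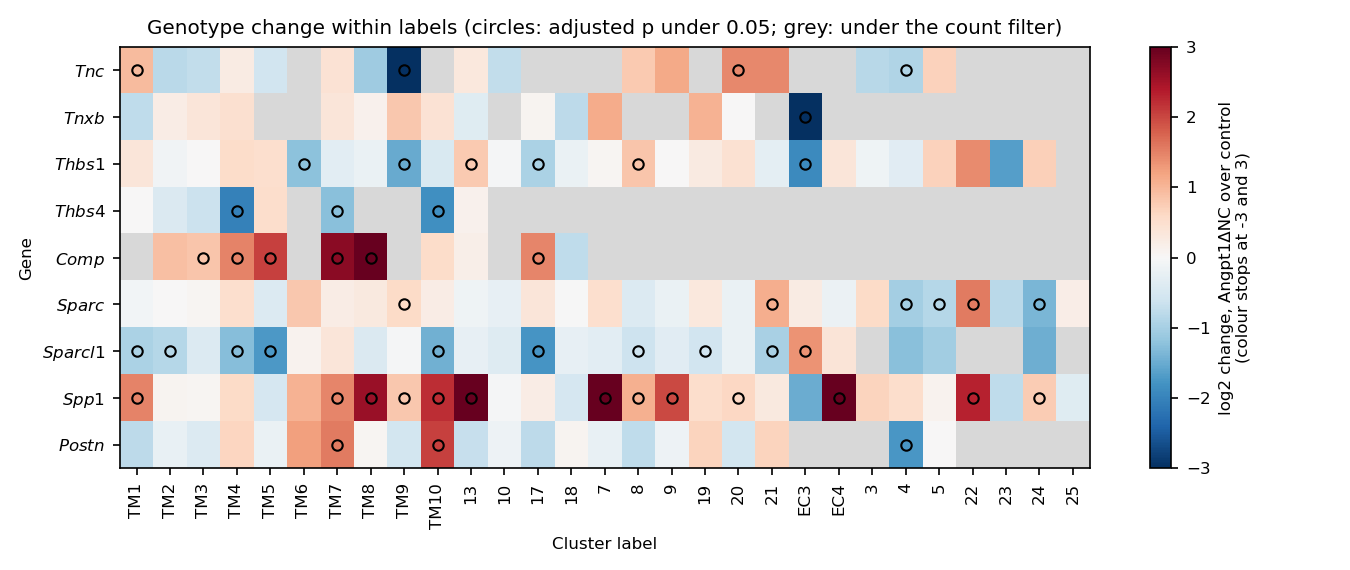
log2 change of each gene (rows) in *Angpt1*ΔNC over control in the 29 labels (columns), from edgeR on summed UMIs, with colour stopping at -3 and 3. Circles mark the 52 pairs with an adjusted p under 0.05, and grey marks pairs under the count filter. All circles of *Spp1* and *Comp* are red and those of *Thbs4* blue.

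Among the tenascins, *Tnc* changed in 4 of the 17 labels tested. In TM9 it fell from 27 and 69 UMIs in the controls to 1 UMI among 327 *Angpt1*ΔNC cells, a control to *Angpt1*ΔNC ratio of summed levels of 78.9 with an exact 95% counting interval of 13.8 to 3149, and edgeR's adjusted p was 1.22e-14. Marker genes moved with it in TM9. Lists with 4 of 4 markers below both controls include the meshwork markers (*Myoc*, *Chil1*, *Chad* and *Nell2*), which summed to 1.17, 2.33 and 0.0681. They also include keratocyte markers (41.8, 43.5 and 37.4), pericyte markers (3.32, 3.04 and 1.67) and melanocyte markers (1.28, 1.21 and 0.811). Other lists rose from low sums: endothelium markers 0.0601, 0.0768 and 0.228 (1 of 3 above) and cycling markers 0.0760, 0.0942 and 0.111 (2 of 3 above). The keratocyte list (*Kera*, *Lum*, *Aldh3a1* and *Ptgds*) does not single out keratocytes. It summed to 686, 665 and 428 in cluster 1, led by *Ttr* and *Rgr*, against 161.6, 160.5 and 80.2 in TM1. The part of these shifts in the fall of *Tnc* was not tested. In the limbal epithelium-like cluster 4 it fell from 0.613 and 0.512 to 0.261 (log2 change -0.91 ± 0.19, SE, adjusted p = 3.43e-04). It rose in cluster 20 from 0.210 and 0.295 to 0.558 (1.43 ± 0.26, adjusted p = 3.95e-04). In TM1 it stood at 0.479 and 1.12 in the controls and 1.57 in *Angpt1*ΔNC (0.95 ± 0.29, adjusted p = 0.0413), and without control replicate 1 this change was 0.43. DESeq2 called the fall in TM9 (adjusted p = 0.0162) and not the changes in cluster 20 (0.246), cluster 4 (0.200) and TM1 (1.000). In TM5, its main site, *Tnc* was at 4.84 and 4.09 against 2.75 and the change of -0.57 ± 0.24 did not pass (adjusted p = 0.158).

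The change in cluster 20 and that in TM9 were compared in a fit over both labels with the library as a block, and differed by 7.41 ± 0.70 on the log2 scale (adjusted p = 3.52e-23; background 5.25% of genes). This label pair was picked after the values were seen, as the most extreme calls in opposite directions. Such a test could hardly fail, and its p-value lends no further support. The same holds for the further comparisons of this kind below.

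*Tnxb* did not pass in TM10 (0.44 ± 0.21, adjusted p = 0.268) although *Angpt1*ΔNC lay above both controls. It passed only in the endothelial label EC3, where the controls held 21 and 49 UMIs and *Angpt1*ΔNC 1 UMI in 58 cells. The ratio of summed levels was 14.1 with a counting interval of 2.46 to 567, and edgeR's adjusted p was 0.0334. DESeq2 did not call it (adjusted p = 0.772), and neither did the other size factors of edgeR (0.128).

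Among the thrombospondins, *Comp* rose in 6 of the 10 labels tested, 5 of them TM labels. In TM4 it went from 2.39 and 3.36 to 7.88, a change of 1.49 ± 0.21 (adjusted p = 9.42e-04), and in TM7, also led by *Chil1*, from 0.377 and 0.306 to 2.14, a change of 2.70 ± 0.19 (adjusted p = 1.10e-06). The share of cells with *Comp* rose alongside, from 37.4% (31.8 to 43.3) and 38.2% (32.9 to 43.7) to 59.2% (53.5 to 64.7) in TM4 and from 7.95% and 8.66% to 28.7% in TM7. After thinning to 1000 UMIs these shares were 16.1%, 16.7% and 25.7% in TM4, and 3.30%, 2.17% and 11.5% in TM7. Cluster 5, which should lack *Comp* and is deeper, had *Comp* in 0.522%, 0.396% and 0.741% of cells.

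The other *Comp* labels had few UMIs. TM8 held 4 and 5 UMIs in the controls and 28 in *Angpt1*ΔNC (4.37 ± 0.50, adjusted p = 3.96e-04). These 28 came from 11 of 155 cells, and 1 cell gave 42.9% of them. TM5 held 5, 16 and 65 (2.04 ± 0.42, adjusted p = 1.66e-04), and 1 cell gave 46.2% of the 65. Cluster 17 held 15, 37 and 86 UMIs (1.48 ± 0.30, adjusted p = 0.0156), and TM3 went from 0.459 and 0.620 to 0.886 (0.84 ± 0.25, adjusted p = 0.0434), a change of 0.55 without control replicate 1 and 1.29 without control replicate 2. DESeq2 called TM4, TM7 and TM8 and not these other 3. In cluster 13 *Comp* was at 7.82 and 8.09 against 8.26 (0.18 ± 0.22, adjusted p = 0.734), so there the difference was within the replicate spread. In TM10 the mean of 1.77 in *Angpt1*ΔNC came from 5.85% of the cells, and the 10% of cells with the most held 100% of it.

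*Thbs4* fell in TM4, the label in which *Comp* rose, from 3.35 and 2.81 to 0.704 (log2 change -2.04 ± 0.22, adjusted p = 7.35e-05). The share of TM4 cells with *Thbs4* fell from 44.4% (38.6 to 50.4) and 47.9% (42.4 to 53.4) to 14.1% (10.5 to 18.5). It also fell in TM7, from 1.10 and 0.915 to 0.329 (-1.26 ± 0.22, adjusted p = 0.00496), and in TM10, from 0.348 and 0.735 to 0.157 (-1.84 ± 0.47, adjusted p = 0.0179), where 1 cell held 54.2% of the 24 *Angpt1*ΔNC UMIs and the change without control replicate 2 was -0.78. Of these falls only that in TM4 was also called by every other fit that tested it. In its leading labels *Thbs4* did not pass, with 0.14 ± 0.23 in cluster 13 (adjusted p = 0.808) and 0.01 ± 0.22 in TM1 (adjusted p = 0.990). In cluster 13 the share of cells with *Thbs4* was nonetheless 92.7% (87.6 to 96.2) in both controls and 76.6% (64.3 to 86.2) in *Angpt1*ΔNC.

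Marker genes moved with these labels. The summed level of the 4 meshwork markers *Myoc*, *Chil1*, *Chad* and *Nell2* was 127, 129 and 58.7 in TM4, with 4 of 4 below both controls, and 29.6, 40.4 and 10.2 in TM7, again with 4 of 4 below. In TM8 it was 1.91, 3.63 and 0.634, with 4 of 4 below, and in TM10 10.1, 9.83 and 4.73, with 2 of 4 below. It was 21.7, 26.0 and 13.003 in TM3, with 4 of 4 below, and 38.9, 49.3 and 16.8 in TM5, with 3 of 4 below. None of the 4 was at 0 in every library. Markers of other cells moved both ways. In TM4 fibroblast markers summed to 9.47, 9.64 and 2.13 (3 of 4 below) and pericyte markers to 9.80, 6.83 and 1.66 (2 of 4 below). In TM7 fibroblast markers summed to 12.8, 12.6 and 7.03 (3 of 4) and pericyte markers to 13.6, 11.4 and 4.48 (4 of 4). Keratocyte-list markers, which do not single out keratocytes, were higher, at 21.4, 24.7 and 41.5 in TM4 (2 of 4 above both controls, 1 below). In TM7 they were at 15.6, 16.7 and 20.2 (2 of 4 above, 2 below). Corneal endothelium markers in TM4 were at 4.91, 6.28 and 8.01 (2 of 4 above). The part of these shifts in the changes of *Comp* and *Thbs4* was not tested.

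*Thbs1* changed in 6 of 28 labels. Its clearest fall was in TM9, from 8.15 and 10.7 to 2.98 (-1.51 ± 0.21, adjusted p = 1.26e-09). It also fell in cluster 17, from 5.34 and 6.49 to 2.61 (-0.94 ± 0.21, adjusted p = 0.0231), and in TM6, from 5.09 and 5.81 to 2.90 (-1.22 ± 0.25, adjusted p = 0.0230). All 3 labels also had lower summed stress genes in *Angpt1*ΔNC: 58.0, 56.9 and 37.4 in TM9, 89.6, 65.8 and 51.0 in cluster 17, and 361, 278 and 172 in TM6. The same was seen in 19 of the 29 labels. Among these is cluster 8, where *Thbs1* rose (stress genes 23.6, 20.5 and 19.1). In cluster 13, where *Thbs1* also rose, stress genes were at 111, 90.1 and 120. In TM9 the 4 meshwork markers were also all below both controls, with a sum of 1.17, 2.33 and 0.0681. The part of these shifts in the fall of *Thbs1* was not tested. DESeq2 called TM9 and cluster 17 and not TM6 (adjusted p = 0.244).

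In EC3 *Thbs1* went from 68 and 140 UMIs to 10 (-1.91 ± 0.46, adjusted p = 0.0181), a call lost with edgeR's other size factors (adjusted p = 0.120) and with DESeq2 (0.360). It rose in cluster 8 from 0.652 and 0.842 to 1.22 (0.83 ± 0.17, adjusted p = 0.0157) and in cluster 13 from 6.19 and 9.63 to 11.3 (0.78 ± 0.22, adjusted p = 0.0115). In cluster 13 the change was 0.45 without control replicate 1 and 1.24 without control replicate 2. Among male-typed cells (a UMI of a Y-linked gene and none of *Xist*) it was 0.06, with 22 such *Angpt1*ΔNC cells. The changes of cluster 8 and EC3, picked after the values were seen, differed by 2.73 ± 0.41 (adjusted p = 5.52e-09; background 3.95% of genes). In its leading labels *Thbs1* did not pass, with 0.54 ± 0.20 in TM4, 0.01 ± 0.21 in TM3 and 0.28 ± 0.14 in cluster 19.

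*Sparcl1* was the member that fell most widely. In the mural clusters it fell from 22.1 and 25.6 to 11.9 in cluster 21 (-0.97 ± 0.20, adjusted p = 0.0167) and from 18.04 and 15.5 to 10.2 in cluster 19 (-0.58 ± 0.16, adjusted p = 0.0418). In cluster 8 it fell from 9.46 and 10.1 to 6.31 (-0.62 ± 0.14, adjusted p = 0.0342), and in cluster 17 from 1.79 and 1.18 to 0.366 (-1.78 ± 0.24, adjusted p = 0.00117). The *Angpt1*ΔNC library lay below both controls in 19 of the 25 labels tested, and 4 of the 25 changes were above 0.

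In the stroma *Sparcl1* fell in TM10 from 4.90 and 6.51 to 2.36 (-1.45 ± 0.26, adjusted p = 5.95e-04), in TM1 from 4.47 and 3.66 to 2.12 (-0.95 ± 0.23, adjusted p = 0.00870) and in TM2 from 1.90 and 2.18 to 1.15 (-0.85 ± 0.19, adjusted p = 0.0324). It also fell in TM5, from 0.984 and 0.745 to 0.239 (-1.73 ± 0.34, adjusted p = 5.58e-05), and in TM4, from 0.393 and 0.282 to 0.121 (-1.28 ± 0.29, adjusted p = 0.0243). DESeq2 called 5 of the 10 *Sparcl1* pairs, those of clusters 8, 17 and 21, TM10 and EC3.

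EC3 went the other way, from 1.37 and 1.35 to 3.33 (1.35 ± 0.19, adjusted p = 1.14e-04). Its change and that of cluster 17, picked after the values were seen, differed by 3.15 ± 0.24 (adjusted p = 3.65e-35; background 4.08% of genes). The neighbouring label EC4 was at 6.79, 4.60 and 6.73 and did not pass. EC2 and SC, too small to test, were also highest in *Angpt1*ΔNC (values below). Other signals moved with *Sparcl1* in the mural labels. Summed smooth muscle markers (*Acta2*, *Myh11*, *Actg2* and *Des*) were 134, 137 and 77.1 in cluster 21, with 3 of 4 below both controls, while pericyte markers (*Rgs5*, *Kcnj8*, *Abcc9* and *Pdgfrb*) were 32.8, 26.7 and 67.0, with 2 of 4 above. Cluster 19 had 54 *Angpt1*ΔNC cells against 387 and 499, pericyte markers at 6.62, 6.57 and 0.940, and summed stress genes at 159, 139 and 90.7. The part of these shifts was not tested.

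*Sparc* itself did not pass in the stromal labels where it was highest, with -0.08 ± 0.28 in TM1, -0.13 ± 0.25 in cluster 13 and -0.40 ± 0.29 in TM5. It rose in cluster 21 from 9.59 and 9.14 to 18.1 (1.09 ± 0.17, adjusted p = 0.00425), the cluster in which *Sparcl1* fell. TM9 rose from 16.9 and 17.7 to 24.5 (0.56 ± 0.18, adjusted p = 0.0391).

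The other *Sparc* calls were in labels with low levels. The epithelial cluster 4 fell from 1.12 and 0.915 to 0.438 (-1.02 ± 0.18, adjusted p = 3.37e-06) and cluster 5 from 1.36 and 1.13 to 0.659 (-0.86 ± 0.16, adjusted p = 0.0321). The macrophage-like cluster 24 fell from 0.694 and 1.40 to 0.426 (-1.38 ± 0.29, adjusted p = 0.0208). The lymphocyte-like cluster 22 rose from 0.517 and 0.669 to 1.52 (1.57 ± 0.33, adjusted p = 0.0238), with 56.0% of its 116 *Angpt1*ΔNC UMIs in 1 cell. These 4 labels are of cell types not known for *Sparc*, and the part of free RNA in their levels was not tested. No *Sparc* pair, in these labels or others, was called by every other fit that tested it. The changes of clusters 22 and 24, picked after the values were seen, differed by 3.01 ± 0.38 (adjusted p = 8.43e-06; background 0.993% of genes).

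*Spp1* rose in pigment cells, in pericyte-like cells and in part of the stroma. In cluster 8 it went from 39.8 and 36.9 to 80.1 (1.06 ± 0.14, adjusted p = 0.00137), and in cluster 9 from 11.8 and 13.7 to 49.4 (1.98 ± 0.17, adjusted p = 1.41e-26). The shift in cluster 9 was in most cells, as the share with *Spp1* rose from 58.6% (54.9 to 62.3) and 56.3% (52.8 to 59.8) to 95.2% (92.1 to 97.4), and after thinning to 1000 UMIs from 37.7% and 38.0% to 89.7%. Corneal epithelial cells of cluster 5 had *Spp1* in 12.9%, 24.8% and 22.6% of cells, at 0.696%, 2.18% and 0.370% after thinning. Summed melanocyte markers were 298, 336 and 408 in cluster 9.

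TM8 rose by the most among labels with high *Spp1*, from 11.9 and 14.4 to 69.4 (2.58 ± 0.16, adjusted p = 2.71e-06). TM7 rose from 7.17 and 7.91 to 19.9 (1.46 ± 0.17, adjusted p = 1.83e-04), and TM9 from 63.3 and 61.3 to 100.3 (0.81 ± 0.17, adjusted p = 1.47e-04). In cluster 20 the mean rose from 75.3 and 85.9 to 126 (0.61 ± 0.19, adjusted p = 0.0495) while the share of cells with *Spp1* was 63.8% (59.2 to 68.2) and 66.6% (62.3 to 70.7) in the controls and 52.3% (45.5 to 59.0) in *Angpt1*ΔNC, so a smaller share of cells held a higher mean. In TM1 *Spp1* was at 0.530 and 2.25 in the controls and 4.37 in *Angpt1*ΔNC (1.49 ± 0.36, adjusted p = 0.00655), and this change was 0.74 without control replicate 1 and 3.07 without control replicate 2.

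The remaining 6 *Spp1* calls rested on very few cells. Cluster 7, led by *Pcp4*, held 18 and 11 UMIs in the controls and 622 in *Angpt1*ΔNC (5.32 ± 0.37, adjusted p = 0.00140), of which 95.8% were in 1 cell. In cluster 13 (10, 35 and 95 UMIs; 3.69 ± 0.27, adjusted p = 1.80e-39) 1 cell held 96.8%, in TM10 (39, 25 and 190 UMIs; 2.22 ± 0.25, adjusted p = 6.03e-07) 89.5%, and in EC4 (5, 11 and 118 UMIs; 3.87 ± 0.37, adjusted p = 8.92e-05) 78.8%. In cluster 22 (6, 64 and 168 UMIs; 2.30 ± 0.54, adjusted p = 0.0384) and cluster 24 (932, 1408 and 1386 UMIs; 0.76 ± 0.15, adjusted p = 0.0170) the shares were 53.0% and 40.6%. Without the cell with the most *Spp1* in each library, the log2 ratio of summed levels went to 0.68 in cluster 7, -0.90 in cluster 13, -0.41 in TM10, 1.68 in EC4, 3.45 in cluster 22 and 0.13 in cluster 24. In the other 7 labels it stayed between 0.55 (cluster 20) and 2.44 (TM8). The test on sums does not see this spread between cells. Leaving out control replicate 1 and then control replicate 2 also moved the fitted change, to 4.59 and 5.75 in cluster 7, to 3.36 and 4.61 in EC4, to 3.04 and 4.87 in cluster 13 and to 1.66 and 4.25 in cluster 22.

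**Figure D3:**
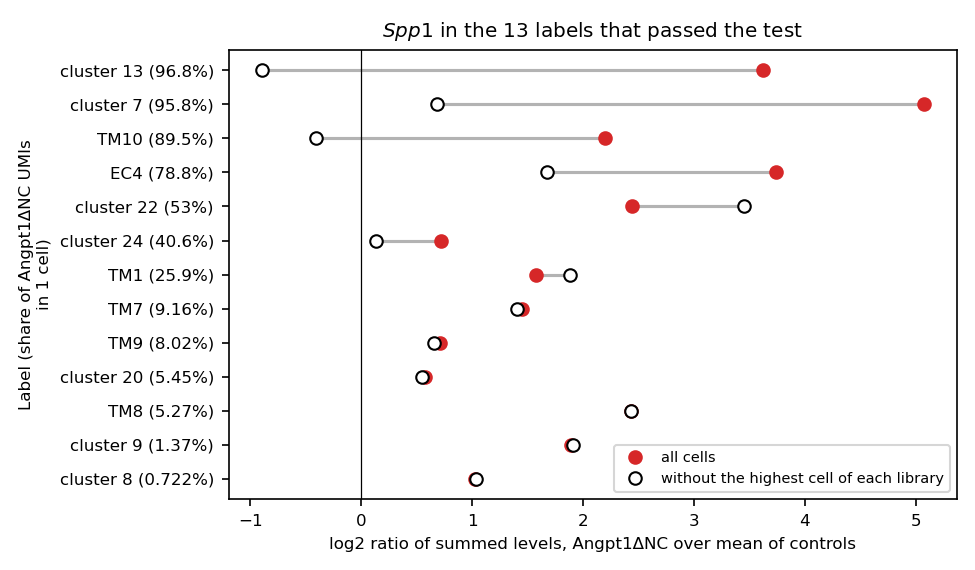
log2 ratio of the summed *Spp1* level in *Angpt1*ΔNC over the mean of the controls in the 13 labels that passed, with all cells (filled) and without the cell holding the most *Spp1* UMIs in each library (open). The percentage beside each label is the share of its *Angpt1*ΔNC UMIs in 1 cell. Cluster 13 and TM10 cross 0, whereas clusters 8, 9 and 20, TM7, TM8 and TM9 hardly move.

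The sexes of the pools differed, so the fit was repeated on male-typed cells. *Angpt1*ΔNC held 29.4% male-typed cells (a UMI of a Y-linked gene and none of *Xist*) against 69.7% and 72.1%. Among male-typed cells alone the change was 1.31 in cluster 8, 2.14 in cluster 9 and 1.23 in TM7, with edgeR adjusted p of 0.00133, 2.79e-05 and 1.02e-04. It was 0.68 in TM8 (adjusted p = 0.0826, 21 *Angpt1*ΔNC cells), 0.14 in TM9 (0.759) and 0.01 in cluster 20 (0.994, 71 *Angpt1*ΔNC cells). Sex cannot be told apart here from the smaller number of cells or the typing rule.

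*Postn* rose most where *Tnxb* marks the cells. In TM10 it went from 3.07 and 1.95 to 11.6 (2.05 ± 0.24, adjusted p = 1.18e-06), and the median cell from 0 and 0 to 8.67. In TM7 it rose from 0.413 and 0.436 to 1.30 (1.55 ± 0.18, adjusted p = 1.79e-04). In cluster 4 it fell from 0.131 and 0.223 to 0.0595 (-1.74 ± 0.30, adjusted p = 2.66e-06). DESeq2 called the change in TM7 (adjusted p = 0.00382) and not those in TM10 (0.116) and cluster 4 (0.122). The changes in TM10 and cluster 4, picked after the values were seen, differed by 3.78 ± 0.42 (adjusted p = 4.11e-06; background 4.07% of genes). In TM3, the leading label, *Postn* was at 8.42 and 8.04 against 6.44 (-0.41 ± 0.20, adjusted p = 0.265).

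Both *Postn* and *Tnxb* were detected in 34.0%, 29.3% and 75.0% of TM10 cells, close to the 32.7%, 27.6% and 72.0% that their separate shares give if the genes are detected independently. The fibroblast markers of TM10 summed to 64.1, 54.2 and 83.0, with 3 of 4 above both controls. The part of this in the rise of *Postn* was not tested.

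**Figure D4:**
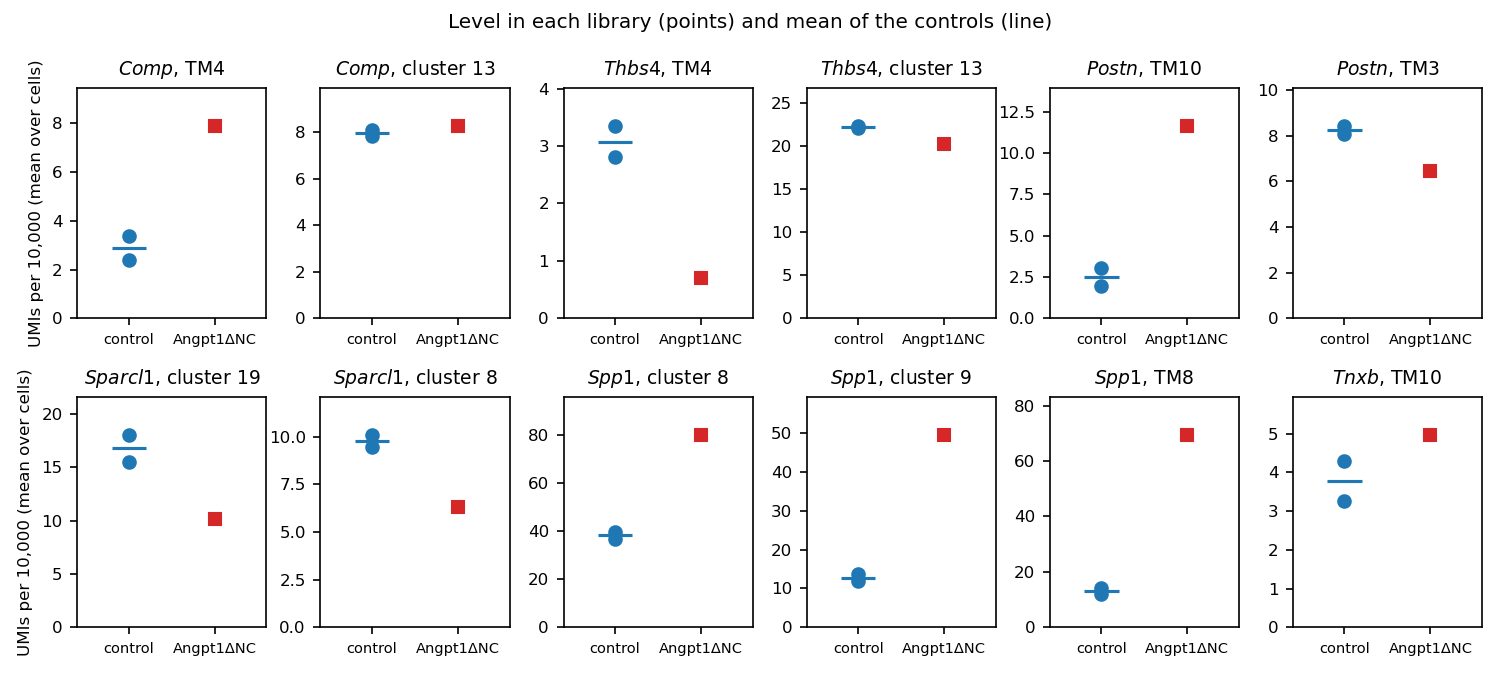
Level (mean over cells of UMIs per 10,000) in each library for 12 member-label pairs, with control libraries as circles, *Angpt1*ΔNC as a square and a line at the mean of the controls. *Comp* and *Thbs4* part in TM4 and not in cluster 13, and *Spp1* lies above both controls in clusters 8 and 9 and TM8.

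Over TM1 to TM11 taken as 1 class, 4 of the 9 members passed, against a background of 8.78% of 13401 genes. *Comp* rose from 0.438 and 0.602 to 1.88 (1.76 ± 0.20, adjusted p = 0.00220), *Spp1* from 13.2 and 16.7 to 32.6 (1.06 ± 0.21, adjusted p = 0.0203) and *Tnxb* from 0.445 and 0.471 to 0.683 (0.71 ± 0.13, adjusted p = 0.0186). *Sparcl1* fell from 2.14 and 1.83 to 1.34 (-0.59 ± 0.15, adjusted p = 0.0485). *Postn* was at 2.02 and 2.19 against 3.33 and missed the threshold (0.56 ± 0.15, adjusted p = 0.0541), and so did *Thbs4* at 1.13 and 0.900 against 0.736 (-0.45 ± 0.16, adjusted p = 0.129).

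*Thbs1* (0.11 ± 0.21), *Tnc* (0.26 ± 0.20) and *Sparc* (0.28 ± 0.15) did not pass in the class. A class sum moves with the mix of labels, and fewer cells of a label cannot be told apart in it from less RNA per cell. With the 11 labels weighted equally in every library *Tnxb* was at 0.23 (adjusted p = 0.398), while *Comp* (1.42), *Spp1* (0.82) and *Sparcl1* (-0.68) still passed. *Spp1* did not pass in the class among male-typed cells (0.24, adjusted p = 0.437), and *Sparcl1* did not pass with edgeR's other size factors (0.0559) or DESeq2 (0.0612).

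In the smaller labels no test was made, and levels are summed UMIs per 10,000 with exact 95% Poisson intervals that cover counting error only. In SC *Postn* was at 2.49 (2.09 to 2.94) and 2.59 (2.22 to 3.00) in the controls and at 1.02 (0.572 to 1.69) in the 15 *Angpt1*ΔNC cells, so the intervals did not overlap. *Sparc* was at 16.5 (15.5 to 17.6), 18.1 (17.1 to 19.1) and 16.6 (14.6 to 18.8) in SC, and *Thbs1* at 1.71, 2.32 and 1.84. No *Tnc* or *Thbs4* UMI was found in SC in any library, which counting error alone allows up to 0.0669, 0.0543 and 0.251 per 10,000. *Sparcl1* was at 2.22 (1.63 to 2.96), 2.81 (2.29 to 3.41) and 4.40 (3.70 to 5.19) in EC2, with *Angpt1*ΔNC above both control intervals. In SC *Sparcl1* was at 1.54 (1.23 to 1.91), 2.24 (1.89 to 2.62) and 2.79 (2.00 to 3.79). There the *Angpt1*ΔNC interval overlapped that of control replicate 2. LEC held 3, 1 and 12 cells, too few to describe. In TM11 *Sparc* was at 174, 143 and 121 and *Postn* at 7.12, 8.78 and 7.37.

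Other genes of these families were followed as a list of 17 relatives, of which 15 passed the filter in some label. Of their 216 gene-label pairs 13 were higher and 29 lower in *Angpt1*ΔNC (19.4% called, against 5.31% of all gene-label pairs), with a median log2 change of -0.19. *Cyr61*, a CCN family matrix protein that responds to mechanical and dissociation stress, accounted for 12 of the lower pairs, among them cluster 4 (-2.63 ± 0.21), cluster 8 (-2.73 ± 0.42) and cluster 9 (-2.62 ± 0.49), and rose in EC4 (1.25 ± 0.21). *Ctgf*, a further CCN protein, fell in 5 labels and rose in 2, and was lowest against control in cluster 4 (-3.25 ± 0.23).

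*Smoc2*, a calcium-binding relative of *Sparc*, fell in TM10 (-1.90 ± 0.25) and TM1 (-0.85 ± 0.23), and *Smoc1* in cluster 20, TM7 and TM9. Both passed over TM1 to TM11 (*Smoc1* -0.60 ± 0.15, adjusted p = 0.0473; *Smoc2* -0.98 ± 0.22, adjusted p = 0.0357). *Wisp2*, which was among the genes most like *Comp* over labels, rose in cluster 13 (2.34 ± 0.22), TM1 (1.65 ± 0.39) and TM10 (1.35 ± 0.20). *Thbs2*, the closest relative of *Thbs1*, fell in 1 of 20 labels and *Thbs3* changed in 0 of 13 (adjusted p by edgeR over all pairs).

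Of 243 gene-label pairs of the 12 receptors of matricellular proteins, 12 were higher and 8 lower (8.23% called, against 5.31% of all gene-label pairs), with a median log2 change of -0.02, and none of them passed over TM1 to TM11. *Itga5*, which pairs with *Itgb1* as a fibronectin receptor, rose in 5 labels, clusters 4, 9 and 19, EC3 and TM9. *Itga8*, whose heterodimer binds osteopontin and tenascin, fell in 4, cluster 19, TM2, TM3 and TM9. *Itgb1*, *Itgav*, *Itgb3* and *Cd47* passed in no label.

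The 12 stress genes had 11 higher and 61 lower of 342 pairs (21.1% called, against 5.31% of all gene-label pairs), with a median log2 change of -0.33. *Cyr61* is an early-response gene as well, and the part of this shift in its lower levels was not tested.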

How the data were processed

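The 3 libraries were prepared with the 10x Genomics 3′ chemistry and aligned to mm10. The labels name Cell Ranger 2.1.1 and Seurat 3.1.3, while the header of the deposited matrices gives Cell Ranger 3.0.2. The authors deposited UMI counts per gene and cell, not normalised, and a table with a label for each cell they kept. No doublet caller was run here, and cells were kept as the authors kept them. No column of the deposited tables was left without a sample.

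UMIs of all genes were summed per library and label in the 29 labels with at least 50 cells in every library. *Angpt1*ΔNC was compared with both controls by the quasi-likelihood test of edgeR 4.0.16 in R 4.3.3, scaled by TMM, for genes with a mean of at least 10 UMIs. P-values were adjusted by Benjamini-Hochberg over all gene-label pairs, with a threshold of 0.05, and TM1 to TM11 were summed for a separate fit. Differences between the changes in 2 labels were tested with the library as a block. The scripts were tested on simulated data with known changes before use. Levels, exact binomial and Poisson intervals (95%) and thinned shares were computed in Python 3.11.15. Depth per library is given with the samples, and intervals cover counting error only.

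Text was limited to the 9 genes, their 3 leading labels, each pair past the threshold, the 3 genes most alike and lists of relatives, receptors and stress genes. The members and lists were chosen with earlier results of these data known. Alternatives were other size factors, DESeq2 1.42.0, no count filter, labels with at least 100 cells, each control left out, male-typed cells alone and equal weight of the TM labels. Leaving out the cell with the most UMIs was chosen after seeing the data. Positions are those of GENCODE M21.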

Additional observations from a re-analysis of the deposited data

Results flagged for a closer look

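In 5 of the 9 genes the calls in *Angpt1*ΔNC went in opposite directions in a pair of labels. The label pairs were the most extreme calls of each gene, chosen after the values were seen. A test of the difference itself (edgeR with the library as a block, log2 scale, adjusted over all genes of each fit) was therefore almost bound to pass. It passed in all 5 genes, which adds no support beyond the calls, and the differences are given as a description. The reason for each difference was not tested.

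*Tnc* rose in the pericyte-like cluster 20 and fell in TM9, a difference of 7.41 ± 0.70 that includes the single *Tnc* UMI of TM9 in *Angpt1*ΔNC. *Postn* rose in the fibroblast-like TM10 and fell in the limbal epithelium-like cluster 4, a difference of 3.78 ± 0.42. *Sparcl1* rose in the endothelial label EC3 and fell in cluster 17, a difference of 3.15 ± 0.24. *Sparc* rose in the lymphocyte-like cluster 22 and fell in the macrophage-like cluster 24, a difference of 3.01 ± 0.38 in which a single cell held 56.0% of the *Angpt1*ΔNC UMIs of cluster 22. *Thbs1* rose in cluster 8 and fell in EC3, a difference of 2.73 ± 0.41.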

How the results depend on the processing

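Of the 52 member-label pairs called, 44 were called with the other size factors of edgeR (47 calls in all), 45 without a count filter (57 in all) and all 38 that lie in labels with at least 100 cells. The last is the main fit of each label, adjusted over fewer pairs, so that keeping these calls is hardly a check. DESeq2 called 23 pairs (14 higher, 9 lower) and 2577 over all genes, against 12012 in edgeR. Male-typed cells alone gave 25 pairs (13 higher, 12 lower) and 4651 over all genes, and kept 20 of the 44 calls they could test, with fewer cells in each sum. Without either control all 52 pairs kept their direction (52 to 52). The pairs were picked with both controls in the fit, so this was likely beforehand, and the lone *Angpt1*ΔNC library cannot be left out. Directions turned for *Spp1* in cluster 22 (-0.61) and TM10 (-1.09) among male-typed cells, for *Spp1* in cluster 13 (-0.90) and TM10 (-0.41) without the highest cells, for *Thbs1* over TM1 to TM11 without control replicate 1 (-0.13, against 0.40 without control replicate 2) and for *Tnc* there with equal weight of labels (-0.30). The cause was not tested, apart from the single cells named in the report. Over TM1 to TM11 between 3 and 6 members passed. The leading label was the same for 9 of 9 members by summed levels. Subtracting the level of cluster 22 cannot change the order of labels, so it tests nothing here. After thinning the label with the highest share of positive cells was the same for 7 of 9. No paired analysis was possible because the groups share fewer than 2 replicate numbers.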
